A study of Homo sapiens with 8 samples.

Results

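The 52 genes described here encode the proteins that license, unwind and copy DNA in human cells. They were taken by symbol from a list covering origin recognition, helicase loading, the MCM helicase, firing factors, the 3 replicative polymerases, the sliding clamp and its loaders, RPA and Okazaki fragment maturation. All 52 were found among the 31721 genes of the deposited expression table, and all 52 were among the 12443 genes tested. The rule used symbols and no expression value. Mean levels ran from 3.52 FPKM (fragments scaled by exon length and library size, a level per length) for GINS3 to 160 FPKM for PCNA, and the reads behind a single value ran from 301 to 25778.

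RNA was measured in A2780 cells, a human ovarian carcinoma line in culture. The groups were the combination of olaparib and palbociclib, palbociclib alone, olaparib alone, and DMSO, the solvent, each for 24 hours with 2 libraries. Palbociclib inhibits the cyclin D partner kinases CDK4 and CDK6, and olaparib blocks PARP1 and PARP2, which add poly(ADP-ribose) at DNA breaks. No dose was given, and no group carries a genetic change that another lacks. The series calls the libraries of a group biological repeats without saying that they came from separate cultures, so a p-value here covers only the differences between these libraries, part of which may be technical.

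Before S phase, the origin recognition complex marks origins, and CDC6 and CDT1 load rings of MCM2 to MCM7 onto them, a step called licensing. Geminin, the product of GMNN, binds CDT1 and stops further loading once S phase has begun. The kinase CDC7 with its partner DBF4 then allows CDC45 and the GINS complex to join MCM and form the active helicase, and primase, polymerases, the PCNA clamp, RPA and the ligase LIG1 act at the fork. Transcription of many of these genes rises late in G1 through E2F factors, which the retinoblastoma protein restrains until cyclin-dependent kinases phosphorylate it. In bulk RNA, fewer cells in S phase and less of these transcripts per cell cannot be told apart.

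Promoters are shown because E2F-type letters are a feature that many of these genes share and that the choice of genes did not use. RefSeq promoter sequences on GRCh38.p14 matched 44 of the 52 by symbol, with 57 starts in all, and MCM4, MCM5, GINS4, RECQL4, POLD3, DSCC1, RPA2 and RPA3 had no entry. The letters TTTCGCGC, TTTGGCGC, TTTCCCGC or TTTGCCGC were searched on both strands in the 250 bases before a start, with overlapping matches counted once. They occurred in 15 of the 44 genes (34.1%), against 5.9% of the 8470 tested genes with an entry and 3.4% of all 27305 genes. The following windows hold the match nearest the start, in capitals, with up to 10 bases on either side, and were chosen after the matches were seen.
CDT1: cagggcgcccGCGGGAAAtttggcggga
GMNN: ctgggtcggtTTTGGCGCgctctcactt
MCM6: gtcaggtttgGCGCGAAAtctccagctc
MCM7: gggggcgacgTTTCGCGCc
CDC7: ccgacctgcgGCGGGAAAgtcgcgcgcc
POLA1: tcatcacaggGCGCCAAAcgcgcgtccg
PCNA: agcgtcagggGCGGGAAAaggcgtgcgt
POLE4: tccagcccgcGCGGGAAAgggcctgcgc

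On GRCh38.p14 the windows lie at chr16:88803744-88803771 (CDT1, plus strand), chr6:24775323-24775350 (GMNN, plus), chr2:135876512-135876539 (MCM6, minus), chr7:100101398-100101416 (MCM7, minus), chr1:91501068-91501095 (CDC7, plus), chrX:24693771-24693798 (POLA1, plus), chr20:5126664-5126691 (PCNA, minus) and chr2:74958602-74958629 (POLE4, plus). A further 7 members held a match: ORC3, MCM3, GINS2, POLA2, POLE, RFC3 and LIG1. In this window the median response was alike with and without the letters, and no test was run. The median log2 fold change with palbociclib against DMSO was −0.54 over the 15 members with a match and −0.55 over the 29 without. The pentamer CCAAT, on either strand, stood in 26 of the 44 (59.1%) and in 42.02% of tested genes, and TTTGAA, a core of the CHR element, in 1 of 44 (POLE3) and in 11.17% of tested genes. A match is a description of letters and does not show binding.

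Whole promoters, 250 bases long and 5′ to 3′ on the gene's strand, follow for the 3 genes with the lowest and the 2 with the highest palbociclib fold change among those with an entry. Capitals mark the E2F-type letters, which only GINS2 has in these stretches. GMNN has a match at its other listed start, shown above.
GINS2: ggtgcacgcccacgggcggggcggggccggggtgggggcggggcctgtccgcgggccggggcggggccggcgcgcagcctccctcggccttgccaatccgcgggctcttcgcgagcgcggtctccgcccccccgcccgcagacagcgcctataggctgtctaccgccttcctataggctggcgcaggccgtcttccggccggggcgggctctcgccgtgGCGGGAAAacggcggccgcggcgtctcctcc
GMNN: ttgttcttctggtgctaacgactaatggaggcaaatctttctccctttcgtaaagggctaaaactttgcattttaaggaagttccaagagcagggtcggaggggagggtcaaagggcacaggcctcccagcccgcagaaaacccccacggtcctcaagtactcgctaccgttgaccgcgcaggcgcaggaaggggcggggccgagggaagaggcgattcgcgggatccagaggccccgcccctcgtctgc
PRIM1: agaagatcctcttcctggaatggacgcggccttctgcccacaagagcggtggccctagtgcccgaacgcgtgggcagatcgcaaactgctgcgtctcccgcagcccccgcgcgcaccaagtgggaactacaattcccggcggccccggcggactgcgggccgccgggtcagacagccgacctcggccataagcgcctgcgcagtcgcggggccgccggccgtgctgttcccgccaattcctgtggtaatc
POLD2: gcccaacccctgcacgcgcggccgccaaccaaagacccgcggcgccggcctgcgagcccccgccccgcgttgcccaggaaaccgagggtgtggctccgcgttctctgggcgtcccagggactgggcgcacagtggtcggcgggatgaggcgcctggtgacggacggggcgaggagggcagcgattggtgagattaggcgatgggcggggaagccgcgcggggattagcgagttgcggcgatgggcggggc
CHTF18: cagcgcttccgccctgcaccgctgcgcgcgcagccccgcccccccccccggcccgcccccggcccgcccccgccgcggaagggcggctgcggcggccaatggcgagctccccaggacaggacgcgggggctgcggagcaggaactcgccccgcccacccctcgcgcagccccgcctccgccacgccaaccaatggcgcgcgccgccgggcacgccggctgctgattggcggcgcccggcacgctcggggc

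These lie at chr16:85688955-85689204 (GINS2, minus strand), chr6:24774687-24774936 (GMNN, plus), chr12:56752324-56752573 (PRIM1, minus), chr7:44123549-44123798 (POLD2, minus) and chr16:788370-788619 (CHTF18, plus). Their GC content was 79.2% in GINS2, 59.2% in GMNN, 68.4% in PRIM1, 73.6% in POLD2 and 82.8% in CHTF18, against a median of 64.8% over the 57 member starts. CHTF18, whose palbociclib fold change was the highest, held 3 CCAAT matches, while GINS2, PRIM1 and POLD2 held 1 each.

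Depth and identity were checked on the whole table. Reads recovered from the FPKM values summed to between 18158713 and 30122425 a library over the 28635 genes whose annotated length gave whole reads. The proliferation marker MKI67 had 14.9 and 13.7 FPKM in combination libraries and 16.2 and 15.5 FPKM in palbociclib libraries, against 31.9 and 32.5 FPKM in olaparib libraries and 35.8 and 36.3 FPKM in DMSO libraries. E2F1 had 20.8 and 21.4 FPKM in combination libraries and 24.2 and 24.5 FPKM in palbociclib libraries, against 33.6 and 37.1 FPKM in olaparib libraries and 34.9 and 35.0 FPKM in DMSO libraries. CDKN1A, which encodes the kinase inhibitor p21, had 24.5 and 28.1 FPKM in combination, 18.7 and 17.8 FPKM in palbociclib, 30.5 and 31.7 FPKM in olaparib and 12.4 and 12.7 FPKM in DMSO libraries. Of the epithelial and ovarian markers, EPCAM was at 0.743 and 1.07 FPKM in combination, 0.76 and 0.772 FPKM in palbociclib, 0.407 and 0.306 FPKM in olaparib and 0.159 and 0.229 FPKM in DMSO libraries. Keratins KRT8, KRT18 and KRT19 were at most 0.258 FPKM, CDH1 at most 0.0124 FPKM and PAX8 and MUC16 at or near 0 in the 8 libraries. The mesenchymal marker vimentin (VIM) was at 340 and 339 FPKM in combination, 350 and 326 FPKM in palbociclib, 243 and 237 FPKM in olaparib and 248 and 253 FPKM in DMSO libraries, with CDH2 at 2.37 to 3.07 FPKM and FN1 at most 0.289 FPKM. EPCAM and VIM were thus higher with palbociclib than with DMSO, and EPCAM also with olaparib. With a mean of 0.555 FPKM, EPCAM lay under the minimum of 1 FPKM set for testing. The part of EPCAM and VIM in the results was not tested. Among markers of other cells, PECAM1 was at most 0.00793 FPKM, HBB at most 0.109 FPKM and COL1A1 at 1.14 to 1.5 FPKM.

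Palbociclib lowered nearly the whole replication machinery. Of the 52 genes, 47 were lower in palbociclib libraries than in DMSO libraries, 1 (CHTF18) was higher, and ORC4, ORC6, POLD2 and POLE4 did not pass (limma, Benjamini-Hochberg adjusted p below 0.05 over all genes tested). Among all tested genes 31.4% were called lower and 18.7% higher. The median log2 fold change was −0.54 over the 52 and −0.05 over all tested genes, with fold changes taken on log2(FPKM + 1). Summed over the 52 genes, the level was 1349 and 1322 FPKM in palbociclib libraries, against 1928 and 1977 FPKM in DMSO libraries, which is 68.4% of the DMSO level. The palbociclib and DMSO libraries did not overlap in any of the 52, and only CHTF18 separated upwards. Of all tested genes, 46.3% separated downwards and 32.5% upwards.

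Rescaling each library to a fixed total, as TPM does, raised the log2 fold changes of tested genes. The median rise was 0.10 here and 0.13 for the combination against DMSO. The share of all calls that were higher was 37.8% as deposited and 57.4% under TPM for the combination against DMSO. It was 37.3% and 56.1% for palbociclib against DMSO, and 38.2% and 53.9% for the combination against olaparib. Relative to DMSO, 46 of the 52 were called lower with the combination (24.2% of all genes were lower and 32.7% higher) and 42 with palbociclib (21.6% lower and 27.6% higher) under TPM. Under quantile normalisation 45 were lower with the combination (29% of all genes were lower and 25.5% higher) and 40 with palbociclib (25.2% lower and 21.9% higher), and CHTF18 was the 1 called higher in each of these. With palbociclib, GINS4, ORC3, POLD1, POLE3 and RECQL4 did not pass under either scaling, nor did MCM5 and POLE under quantile normalisation. With the combination, ORC6, POLE and POLE4 did not pass under either, nor did POLD1 under quantile normalisation. The log2 fold change of POLD2, which did not pass, was −0.04 with palbociclib, 0.06 under TPM and 0.15 under quantile normalisation.

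**Figure D1:**
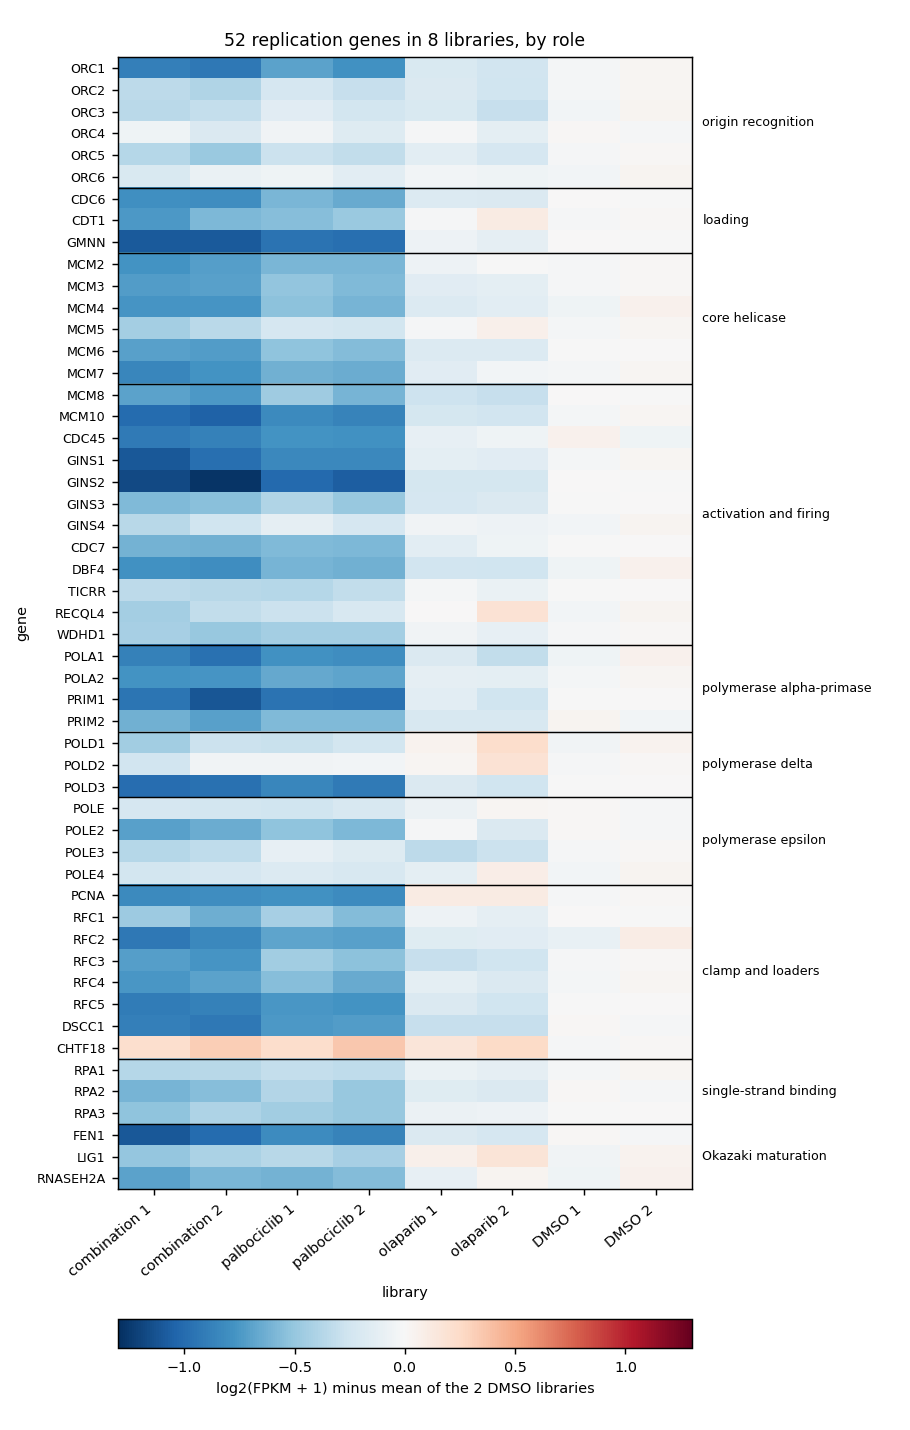
Heat map of log2(FPKM + 1) of 52 replication genes (rows, grouped by role) in 8 libraries (columns), each as the difference from the mean of the 2 DMSO libraries. Blue fills the combination and palbociclib columns for nearly every gene, CHTF18 is the row in red there, and the olaparib columns are pale, with 44 of 52 mean differences below zero.

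Within origin recognition ORC1 fell most, while ORC4 and ORC6 did not pass. ORC1, an ATPase subunit whose level follows the cell cycle, had 11.1 and 10.7 FPKM in combination, 12.8 and 11.9 FPKM in palbociclib, 18.4 and 17.8 FPKM in olaparib and 20.9 and 21.7 FPKM in DMSO libraries. The 4 groups followed one another without overlap, and ORC1 fell by 0.74 ± 0.05 on the log2 scale with palbociclib against DMSO (SE, adjusted p = 5.6e-05). ORC6, the subunit least bound to the rest of the complex, had 13.9 and 15.1 FPKM in combination, 15.4 and 14.5 FPKM in palbociclib, 15.7 and 15.5 FPKM in olaparib and 15.7 and 16.5 FPKM in DMSO libraries. Its palbociclib and DMSO values were close, with a log2 fold change of −0.10 ± 0.05 (adjusted p = 0.14). ORC4 had 5.66 and 5.11 FPKM in palbociclib libraries and 5.93 and 5.82 FPKM in DMSO libraries, a log2 fold change of −0.11 ± 0.07 that did not pass (adjusted p = 0.22). ORC2 (−0.26), ORC3 (−0.19) and ORC5 (−0.30) were lower, so 4 of the 6 subunits passed. The ORC3 call was lost without palbociclib replicate 2 (adjusted p = 0.127) or DMSO replicate 2 (0.125). ORC1 made up 17.5% and 17.0% of the summed ORC level in combination libraries and 18.1% and 18.1% in palbociclib libraries, against 23.8% and 24.2% with olaparib and 24.8% and 24.8% with DMSO.

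The helicase loading factors CDC6 and CDT1 and the loading inhibitor geminin fell together with palbociclib, geminin most. GMNN had 14.8 and 14.7 FPKM in combination and 16.2 and 16 FPKM in palbociclib libraries, against 31.0 and 30.0 FPKM in olaparib and 32.7 and 32.4 FPKM in DMSO libraries. Both palbociclib-treated groups lay far below the others, at 45.3% (combination) and 49.4% (palbociclib) of DMSO, and the palbociclib fold change was −0.97 ± 0.03 (log2, adjusted p = 2.5e-05). CDT1, the loader that geminin binds, had 21.6 and 24.3 FPKM in combination and 24.9 and 26.2 FPKM in palbociclib libraries, against 36.4 and 39.9 FPKM in olaparib and 36.5 and 37.4 FPKM in DMSO libraries. CDT1 fell less, by 0.52 ± 0.07 (log2, adjusted p = 0.0008), and CDC6, the ATPase that acts with it, fell by 0.63 ± 0.03. The ratio of GMNN to CDT1 in FPKM was 0.683 and 0.605 in combination, 0.651 and 0.608 in palbociclib, 0.852 and 0.752 in olaparib and 0.895 and 0.866 in DMSO libraries.

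All 6 subunits of the MCM2-7 ring were lower with palbociclib. MCM7 had 102 and 107 FPKM in combination and 119 and 117 FPKM in palbociclib libraries, against 166 and 180 FPKM in olaparib and 181 and 187 FPKM in DMSO libraries. It fell by 0.64 ± 0.05 (log2, adjusted p = 0.00011), and MCM2, MCM3, MCM4 and MCM6 fell by 0.54 to 0.59. MCM5 was the least changed, with 29.2 and 31.0 FPKM in combination and 34.1 and 33.6 FPKM in palbociclib libraries, against 39.3 and 41.9 FPKM in olaparib and 39.1 and 40.6 FPKM in DMSO libraries. Its fold change was −0.23 ± 0.05 (adjusted p = 0.0064), and −0.08 without passing under quantile normalisation (adjusted p = 0.085). The 6 transcripts were far from equal, since MCM7 made up 28.7% of the ring's summed FPKM in combination, 28.8% in palbociclib, 30.6% in olaparib and 30.3% in DMSO libraries. The share of MCM5, the scarcest, was 8.29% in combination, 8.26% in palbociclib, 7.19% in olaparib and 6.57% in DMSO libraries. The summed ring stood at 59.8% of its DMSO level with the combination, 67.6% with palbociclib and 93.0% with olaparib.

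Activation and firing factors included the gene that fell most. GINS2 had 13.2 and 12.3 FPKM in combination and 14.9 and 14.2 FPKM in palbociclib libraries, against 26.3 and 26.4 FPKM in olaparib and 31.1 and 31.0 FPKM in DMSO libraries. The groups did not overlap, and GINS2 fell by 1.04 ± 0.04 with palbociclib against DMSO (log2, adjusted p = 2.8e-05). GINS4, another subunit of the same four-protein complex, had 6.07 and 6.57 FPKM in combination and 7.36 and 6.78 FPKM in palbociclib libraries, against 7.79 and 7.70 FPKM in olaparib and 7.85 and 8.33 FPKM in DMSO libraries. GINS4 differed by only −0.17 ± 0.06 (adjusted p = 0.038), a call lost without palbociclib replicate 2 (adjusted p = 0.193), DMSO replicate 1 (0.0604), DMSO replicate 2 (0.189), olaparib replicate 1 (0.0551) or olaparib replicate 2 (0.0554). GINS4 therefore made up 17.5% of the summed GINS level in combination and 17.1% in palbociclib libraries, against 11.8% in olaparib and 10.9% in DMSO libraries.

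All 12 genes grouped under activation and firing, with MCM8 among them, were called lower with palbociclib. MCM10, a replisome assembly factor, fell by 0.85, GINS1 by 0.84 and CDC45, which joins MCM in the active helicase, by 0.78. The kinase CDC7 fell by 0.58 and its activator DBF4 by 0.62. MCM8 (−0.54), a relative of the ring subunits that acts in recombination, GINS3 (−0.44), WDHD1 (−0.44), a replisome adaptor, and TICRR (−0.35), which recruits firing proteins, were also lower. RECQL4, a helicase of the RecQ family, was lower, at −0.24 ± 0.07 (adjusted p = 0.028), which was lost without palbociclib replicate 1 (adjusted p = 0.133), palbociclib replicate 2 (0.0604), DMSO replicate 1 (0.0631) or DMSO replicate 2 (0.133).

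Polymerase subunits differed within complexes as well as between them. All 4 transcripts of polymerase alpha-primase, which lays the RNA-DNA primers, were lower. PRIM1, the catalytic primase subunit, had 7.53 and 6.66 FPKM in combination and 7.48 and 7.44 FPKM in palbociclib libraries, against 14 and 12.8 FPKM in olaparib and 15.4 and 15.6 FPKM in DMSO libraries. PRIM1 fell by 0.96 ± 0.06 (log2, adjusted p = 6.5e-05), with combination and palbociclib values overlapping. PRIM2, the regulatory primase subunit, had 4.90 and 4.60 FPKM in combination and 5.11 and 5.14 FPKM in palbociclib libraries, against 6.89 and 6.88 FPKM in olaparib and 8.34 and 7.90 FPKM in DMSO libraries. It fell by 0.57 ± 0.05, POLA1, the catalytic subunit, by 0.80 and POLA2 by 0.68.

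Within polymerase delta, the main lagging-strand enzyme, 1 accessory subunit fell strongly and another did not pass. POLD3 had 4.94 and 5.06 FPKM in combination and 5.57 and 5.26 FPKM in palbociclib libraries, against 9.37 and 8.88 FPKM in olaparib and 10.8 and 10.9 FPKM in DMSO libraries. It fell by 0.88 ± 0.04 (log2, adjusted p = 3.8e-05). POLD2, the second subunit, had 58.3 and 67.5 FPKM in combination, 67.4 and 67.7 FPKM in palbociclib, 70.7 and 79.2 FPKM in olaparib and 68.5 and 70.5 FPKM in DMSO libraries. Its palbociclib values lay just under the DMSO values, with a fold change of −0.04 ± 0.08 (adjusted p = 0.70). The share of POLD3 in the summed level of POLD1, POLD2 and POLD3 was 5.20% in combination and 5.23% in palbociclib, against 7.32% in olaparib and 9.24% in DMSO libraries. The catalytic subunit POLD1 was lower, at −0.26 ± 0.08 (adjusted p = 0.029). That call was lost without palbociclib replicate 1 (adjusted p = 0.125), palbociclib replicate 2 (0.0746), DMSO replicate 1 (0.0521) or DMSO replicate 2 (0.147).

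Polymerase epsilon, the leading-strand enzyme, moved little apart from POLE2. POLE2 had 6.88 and 7.22 FPKM in combination and 7.95 and 7.59 FPKM in palbociclib libraries, against 11.7 and 10.3 FPKM in olaparib and 12 and 11.7 FPKM in DMSO libraries. It fell by 0.55 ± 0.06 (log2, adjusted p = 0.00044), while the catalytic subunit POLE fell by 0.23. The POLE call was lost under quantile normalisation, at −0.11 with palbociclib (adjusted p = 0.096) and −0.06 with the combination (adjusted p = 0.31), and under TPM with the combination, at −0.10 (adjusted p = 0.10). POLE3, a histone-fold subunit, had 45.8 and 47.0 FPKM in combination, 55.2 and 52.9 FPKM in palbociclib, 46.8 and 48.9 FPKM in olaparib and 58.9 and 60.0 FPKM in DMSO libraries. Here the olaparib and combination values lay together and below the palbociclib values. POLE3 differed by −0.13 ± 0.04 with palbociclib (adjusted p = 0.027), a call lost without palbociclib replicate 2 (adjusted p = 0.142), DMSO replicate 1 (0.0795) or DMSO replicate 2 (0.136), and 0.05 under quantile normalisation. POLE4, its histone-fold partner, had 13.1 and 13.3 FPKM in combination, 13.7 and 13.4 FPKM in palbociclib, 14.2 and 16.6 FPKM in olaparib and 15.2 and 16 FPKM in DMSO libraries. Its fold change of −0.19 ± 0.07 with palbociclib just missed the threshold (adjusted p = 0.053). POLE4 passed with a minimum of 5 FPKM (adjusted p = 0.031), in the compared groups alone (0.012), with the replicate block (0.040) and by voom (0.022). It also passed without olaparib replicate 1 or 2, and under no other setting tried.

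PCNA, the clamp that holds polymerases on DNA, was the most abundant of the 52. It had 112 and 114 FPKM in combination and 115 and 113 FPKM in palbociclib libraries, against 215 and 215 FPKM in olaparib and 197 and 202 FPKM in DMSO libraries. PCNA fell by 0.80 ± 0.03 with palbociclib against DMSO (log2, adjusted p = 2.6e-05). The 5 subunits of the clamp loader RFC were all lower, from −0.49 for RFC3 to −0.77 for RFC5. CHTF18 and DSCC1 belong to an alternative loader that shares 4 of those subunits, and they went opposite ways.

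CHTF18, the large subunit of that loader, had 22.0 and 23.8 FPKM in combination, 22.3 and 24.3 FPKM in palbociclib, 21.1 and 22.5 FPKM in olaparib and 18.7 and 19.0 FPKM in DMSO libraries. Every treated library lay above both DMSO libraries. The log2 fold change was 0.27 ± 0.06 with the combination (adjusted p = 0.0066), 0.29 ± 0.06 with palbociclib (adjusted p = 0.0053) and 0.20 ± 0.06 with olaparib (adjusted p = 0.062), each against DMSO. DSCC1 had 14.6 and 14.1 FPKM in combination, 16.2 and 16.4 FPKM in palbociclib, 22.5 and 22.4 FPKM in olaparib and 28.1 and 27.6 FPKM in DMSO libraries, and fell by 0.74 ± 0.03 with palbociclib. The ratio of CHTF18 to DSCC1 was 1.5 and 1.68 in combination, 1.37 and 1.48 in palbociclib, 0.939 and 1.00 in olaparib and 0.666 and 0.686 in DMSO libraries. CHTF18 shares 3.26% of its exon bases with GNG13 and 2.40% with RPUSD1. Reads of overlapping genes may be mixed in the 23 of 52 members that share exon bases with another gene. Use of strand in read counting is not stated, which matters for the 19 members that share bases with a gene on the opposite strand. Sharing passed 25% only in POLA2 and RNASEH2A, each with a gene on the same strand.

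**Figure D2:**
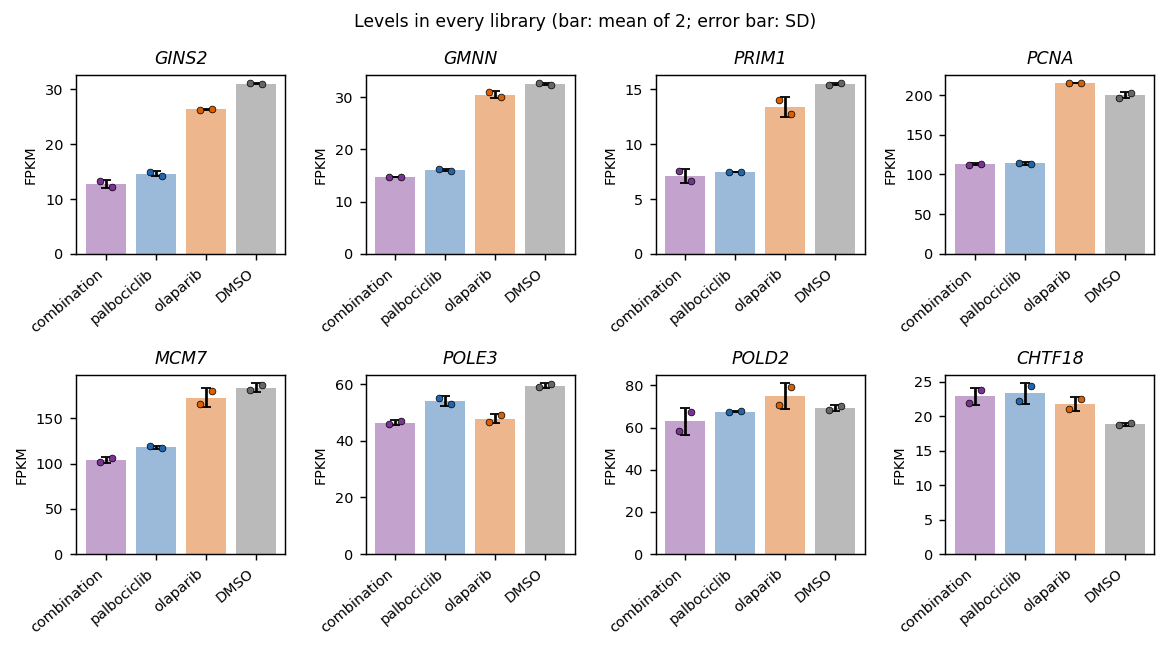
FPKM of 8 genes in the combination, palbociclib, olaparib and DMSO groups; points are libraries, bars the mean of 2 and error bars the SD. GINS2, GMNN, PRIM1, PCNA and MCM7 are low in both groups that received palbociclib, POLE3 is low in both groups that received olaparib, POLD2 groups lie close together, and CHTF18 is lowest with DMSO.

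RPA, the trimer that coats single-stranded DNA, changed by a moderate amount in all subunits. RPA3 had 11.5 and 12.7 FPKM in combination and 12.2 and 11.8 FPKM in palbociclib libraries, against 16.1 and 16.1 FPKM in olaparib and 16.9 and 17.1 FPKM in DMSO libraries. RPA1, the large DNA-binding subunit, had 38.5 and 38.9 FPKM in combination and 40.2 and 39.8 FPKM in palbociclib libraries, against 47.2 and 46.1 FPKM in olaparib and 49.3 and 51.1 FPKM in DMSO libraries. With palbociclib RPA3 fell by 0.47 ± 0.05, RPA2 by 0.44 ± 0.04 and RPA1 by 0.32 ± 0.03, so the spread among the 3 subunits was small beside that within GINS or polymerase delta. Of the Okazaki maturation enzymes, the flap endonuclease FEN1 had 29.2 and 31.4 FPKM in combination and 35.8 and 34.5 FPKM in palbociclib libraries, against 55.8 and 54.9 FPKM in olaparib and 64.7 and 62.9 FPKM in DMSO libraries. FEN1 fell by 0.84 ± 0.04 (log2, adjusted p = 4.1e-05). LIG1, the ligase that seals the fragments, had 12.5 and 13.5 FPKM in combination and 13.9 and 13.2 FPKM in palbociclib libraries, against 19.0 and 20.5 FPKM in olaparib and 17.6 and 18.8 FPKM in DMSO libraries. LIG1 fell by 0.40 ± 0.06, and RNASEH2A, the catalytic subunit of RNase H2, by 0.59 ± 0.06.

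With olaparib alone the 52 genes lay closer to their DMSO levels. In olaparib libraries 20 of the 52 were lower than in DMSO libraries (10.5% of all tested genes were called lower) and none was called higher (4.13% of all genes) by limma. At an unadjusted p below 0.05 the counts were 30 lower and 2 higher, beside 21.9% of all genes lower and 10.6% higher. Voom on the recovered reads called 25 lower and 1, CHTF18, higher, beside 16.7% of all genes lower and 8.63% higher. The median log2 fold change was −0.13 over the 52 and −0.03 over all genes, and the summed level was 94.1% of DMSO. The olaparib and DMSO libraries did not overlap in 44 genes. Among these PCNA, CHTF18, LIG1 and POLD2 separated upwards and the rest downwards. Of all genes, 38.6% separated downwards and 23.3% upwards. The lowest was POLE3, at −0.31 ± 0.04 (adjusted p = 0.011), followed by DSCC1 at −0.30 ± 0.03 (adjusted p = 0.0095), MCM8 at −0.28 and RFC3 at −0.28.

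The 20 came from every role and covered no role in full. Among them were ORC1, ORC2 and ORC3, CDC6, MCM3 and MCM6, MCM8, and the firing factors MCM10, GINS2, GINS3 and DBF4. The others were POLA1 and PRIM2, POLD3, POLE3, the loaders RFC3, RFC5 and DSCC1, RPA2 and FEN1. Genes with positive values included PCNA at 0.11 ± 0.03 (adjusted p = 0.07), LIG1 at 0.11 ± 0.06, POLD1 at 0.14 ± 0.08, POLD2 at 0.11 ± 0.08, RECQL4 at 0.10 ± 0.07 and CDT1 at 0.05 ± 0.07, none of which passed. GMNN stood at −0.09 ± 0.03 (adjusted p = 0.12). PRIM1 stood at −0.20 ± 0.06 (adjusted p = 0.078), and passed without combination replicate 1 or 2 (adjusted p = 0.0477 and 0.0479).

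The olaparib count rested on every library of the 2 groups compared, and none of the 20 was called in all 8 fits that left out a library. Without an olaparib or a DMSO library, calls over all genes fell as well. The members' median log2 fold change was then −0.13 without olaparib replicate 1 or 2, −0.15 without DMSO replicate 1 and −0.11 without DMSO replicate 2. Quantile normalisation and rescaling to TPM each left 6 lower and made CHTF18 and PCNA higher. All genes called lower came to 3.2% with quantile normalisation and 3.8% with TPM, and those called higher to 4.84% and 7.55%. The share of all olaparib calls that were higher was 28.2% as deposited, 60.2% with quantile normalisation and 66.5% with TPM.

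**Figure D3:**
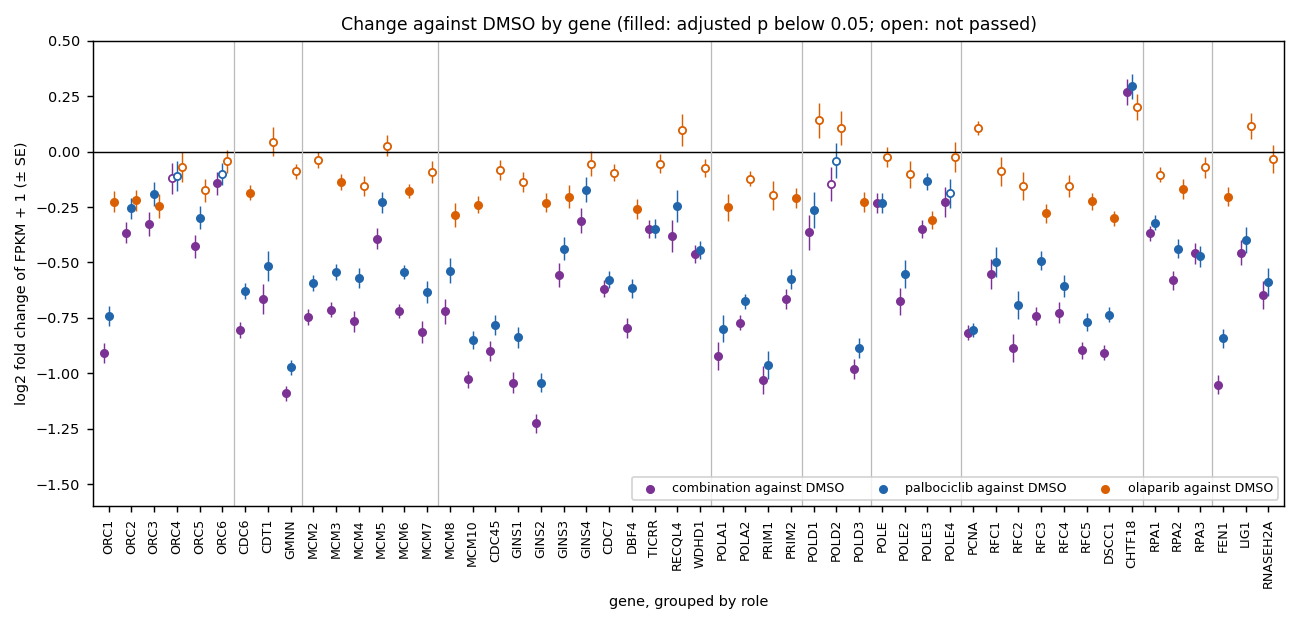
log2 fold change of FPKM + 1 against DMSO (vertical axis, ± SE) for each of the 52 genes (horizontal axis, grouped by role), for the combination, palbociclib and olaparib; filled points passed an adjusted p of 0.05. Combination points lie at or below palbociclib points for most genes, with medians of −0.67 for the combination and −0.54 for palbociclib, and olaparib points lie near zero, with a median of −0.13.

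The combination lowered 49 of the 52 relative to DMSO (35.3% of all genes were called lower), CHTF18 was again the 1 higher (21.5% of all genes were higher), and ORC4 and POLD2 did not pass. The median was −0.67, against −0.06 over all genes, and the summed level was 62.4% of DMSO. All 52 separated from DMSO without overlap, only CHTF18 upwards, where 46.9% of all genes did so downwards and 32.5% upwards. GINS2 was the lowest at −1.23 ± 0.04, then GMNN at −1.09, FEN1 at −1.05, GINS1 at −1.04, PRIM1 at −1.03 and MCM10 at −1.03. ORC6 passed narrowly at −0.14 ± 0.05 (adjusted p = 0.047) and was not called in any of the 8 fits but the one without combination replicate 2, with adjusted p from 0.0537 without palbociclib replicate 2 to 0.218 without DMSO replicate 2. POLE4, at −0.23 ± 0.07 (adjusted p = 0.023), was lost without DMSO replicate 1 (adjusted p = 0.0502), DMSO replicate 2 (0.12), combination replicate 1 (0.0807) or combination replicate 2 (0.0621). POLD2, at −0.14 ± 0.08, passed without combination replicate 2 (adjusted p = 0.0244).

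Against palbociclib alone, the combination made no called difference in any of the 52 (limma, where 0.0161% of all genes were called lower and 0.00804% higher). At an unadjusted p below 0.05, 27 were lower and none higher, beside 11.8% of all genes lower and 4.85% higher, and voom called 7 lower and none higher, beside 1.41% of all genes lower and 0.667% higher. Those were FEN1, MCM3, MCM4, MCM6, MCM7, POLE3 and RFC3, with voom log2 fold changes from −0.26 for RFC3 to −0.17 for MCM3. Of the 52 differences 50 were below zero (44 under quantile normalisation and 45 under TPM), with a median of −0.12 against −0.02 for all genes. In 38 genes the libraries of the 2 groups did not overlap, each with the combination lower. Of all genes, 29.1% separated downwards and 18.1% upwards.

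RFC3 showed the lowest value of the combination against palbociclib, with 24.7 and 23.7 FPKM in combination libraries, against 29.8 and 28.1 FPKM in palbociclib libraries, and a log2 fold change of −0.25 ± 0.04 (adjusted p = 0.13). POLE3 stood at −0.22 ± 0.04, FEN1 at −0.21 ± 0.04, GINS1 at −0.21 ± 0.05, MCM4 at −0.20 ± 0.05, GINS2 at −0.18 ± 0.04 and GMNN at −0.12 ± 0.03, none passing. PCNA, at −0.01 ± 0.03, was almost equal in the 2 groups.

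Against olaparib alone, the combination was lower in 47 of the 52 (27.4% of all genes were called lower) and higher in none (17% of all genes), by limma. No member was higher at an unadjusted p below 0.05 (20.8% of all genes) or by voom (19.1% of all genes). The median was −0.54, against −0.04 over all genes. The libraries of the 2 groups did not overlap in 49 genes, each with the combination lower. Of all genes, 41.9% separated downwards and 30.1% upwards. GMNN was the lowest at −1.0 ± 0.03, then GINS2 at −1.0 ± 0.04, PCNA at −0.92 ± 0.03, GINS1 at −0.91 ± 0.05 and FEN1 at −0.85 ± 0.04. ORC3 (−0.08), ORC4 (−0.05), ORC6 (−0.10), POLE3 (−0.04) and CHTF18 (0.07) did not pass. ORC2 (−0.15) passed but was lost in 6 of the 8 fits that left out a library, all but those without a palbociclib library (adjusted p from 0.0515 without olaparib replicate 2 to 0.179 without olaparib replicate 1). POLD2 (−0.25) was lost in 6, all but those without combination replicate 2 or olaparib replicate 1 (adjusted p from 0.0562 to 0.168). POLE4 (−0.21) was lost in 7, all but that without olaparib replicate 1 (adjusted p from 0.064 to 0.167).

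Each drug's change alone and its change on top of the other drug come from separate libraries and can be set side by side. The palbociclib change was below zero both alone and on top of olaparib in 51 of 52 genes, beside 48.5% of all tested genes. Of the 52, 45 were called lower in both, which is 95.7% of each list of 47. Of all tested genes, 31.4% were called lower alone and 27.4% on top of olaparib. The share of all genes called lower in both was not counted, so the 95.7% has no background beside it. Across the 52 genes Pearson's r between the 2 sets of fold changes was 0.93 and Spearman's rho 0.93, beside an r of 0.78 over all 12443 genes. The olaparib change was below zero both alone and on top of palbociclib in 42 genes, beside 41.8% of all tested genes, with r = 0.53 and rho = 0.56, and r = 0.25 over all genes. These are correlations across genes of the same 8 libraries, genes are not independent replicates, and no p-value is attached.

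**Figure D4:**
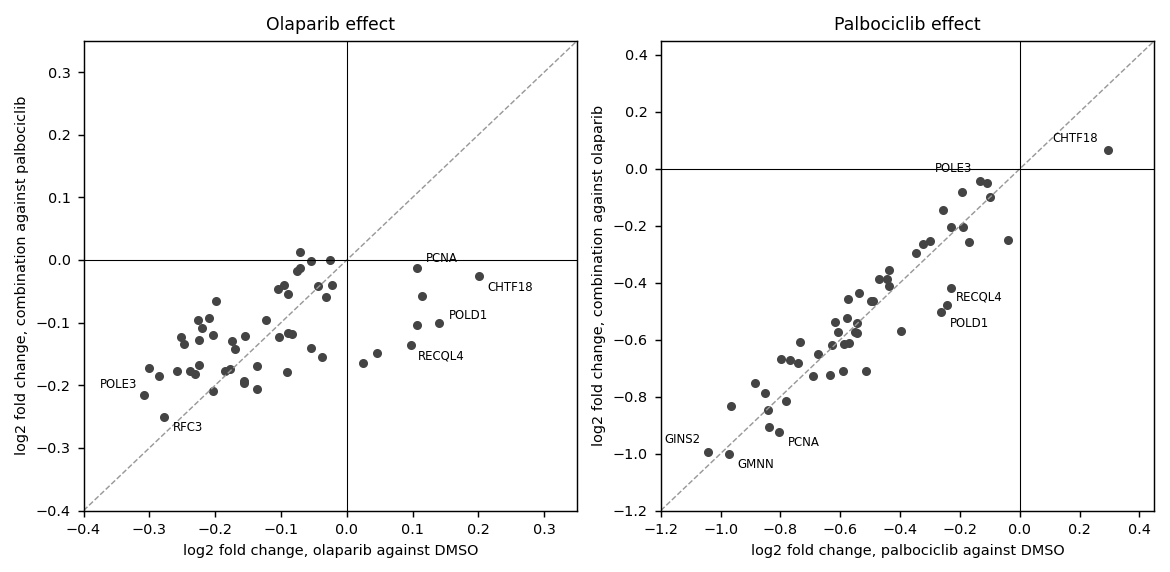
Each point is 1 of the 52 genes. Left, log2 fold change of olaparib against DMSO (horizontal) and of the combination against palbociclib (vertical); right, palbociclib against DMSO (horizontal) and the combination against olaparib (vertical); the dashed line marks equal values. On the right the points run along the line from GINS2 near −1.04 to CHTF18 at 0.29, and on the left most lie below zero on both axes, with 8 genes positive on the horizontal axis.

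The departure from additivity, that is the olaparib change with palbociclib minus the olaparib change without it, passed in none of the 52 by limma (0.00804% of all genes were called lower and 0% higher). At an unadjusted p below 0.05 there were 3 lower and 1 higher of the 52, beside 4.8% of all genes lower and 5.77% higher. In this fit the counts were near that background. At the same threshold 10 members were lower with quantile normalisation (6.11% of all genes) and 9 with TPM (7.80%). The replicate block gave 8 lower (6.57% of all genes) and voom 7 (7.24%). At an adjusted p below 0.05 voom called none of the 52, beside 0.346% of all genes lower and 0% higher. Values ran from −0.24 ± 0.11 for POLD1 to 0.13 ± 0.09 for PRIM1, with a median of 0.03. RECQL4 stood at −0.23 ± 0.10 and CHTF18 at −0.23 ± 0.08. With 2 libraries a group, a value that misses the threshold does not show that the drugs acted additively on a gene.

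Summed FPKM of the listed subunits of a complex differed in how far it lay below DMSO, from the lowest, GINS, to the highest, polymerase delta, in the combination. GINS stood at 48.7% of DMSO with the combination, 55.7% with palbociclib and 88.4% with olaparib. Polymerase alpha-primase stood at 52% with the combination, 56% with palbociclib and 87% with olaparib, and RFC at 57.2% with the combination, 64.7% with palbociclib and 87.1% with olaparib. The MCM2-7 ring, given above, came next. RPA was at 71.1% with the combination, 75.4% with palbociclib and 91.1% with olaparib, and ORC at 73.5% with the combination, 79.5% with palbociclib and 87.8% with olaparib. Polymerase epsilon was at 78.2% with the combination, 86.4% with palbociclib and 87.8% with olaparib. Polymerase delta, as POLD1, POLD2 and POLD3 without POLD4, was at 82.2% with the combination, 88.3% with palbociclib and 107% with olaparib. The sums for polymerase delta were 90.1 and 103 FPKM in combination, 103 and 104 FPKM in palbociclib, 118 and 132 FPKM in olaparib and 115 and 120 FPKM in DMSO libraries, so the olaparib and DMSO ranges overlapped. A sum is led by its most abundant subunit: POLD2 made up 65.2% of the polymerase delta sum in combination, 65.2% in palbociclib, 59.9% in olaparib and 59.2% in DMSO libraries. These sums carry no test.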

How the data were processed

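Sequencing of polyA RNA in 8 libraries, 2 in each of 4 groups, was used as deposited. The submitters' processing notes name the build GRCh38 (hg38) and the tools HTSeq 0.6.0, STAR 2.5.1b and CASAVA 1.8, with no role or order. The authors deposited FPKM per gene, and their library scaling equalled median-of-ratios size factors of the recovered reads. With GENCODE v29 exon lengths, FPKM gave whole reads within 0.01 for 28635 genes (90.3%), 47 of the 52 members among them, and for the other 3086 a length was searched. Residual variation between the libraries of a group exceeded counting noise, at 2.46 to 4.18 chi-square per degree of freedom.

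Genes with a mean of at least 1 FPKM (12443, with 19278 dropped) were fitted as log2(FPKM + 1) in limma 3.58.1 (R 4.3.3) with a trended prior, 4 residual and 3.01 prior degrees of freedom, and 6 contrasts. Tests were two-sided and adjusted by Benjamini-Hochberg within a contrast at 0.05. Fold changes on this scale understate low genes. No permutation test was used, since 0.333 is the smallest exact p that 2 against 2 libraries allow. The fit was tested on simulated data. The members, lists and alternatives were chosen with earlier results of these data known. Values per library are given for the lowest and the highest palbociclib member of each role, for members called higher in any contrast and for those not passing with palbociclib. DSCC1 and RFC3 were added after their values were seen. Of the marker genes listed, KRT7, WT1, PTPRC and CD3E were not found by symbol among the 31721 genes, so they were not analysed here. Replicate numbers shared by the groups did not pair the libraries (correlations of deviations from group means between −0.0467 and 0.0342). Alternatives were other pseudocounts, filters and scalings, voom, the compared groups alone, a replicate block and leaving out each library.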

Additional observations from a re-analysis of the deposited data

How the results depend on the processing

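Directions and calls of members with palbociclib and with the combination against DMSO changed by under 1.5 times in number under every alternative tried. The olaparib count of 20 lower members was 8 with no filter on low values and 6 with quantile normalisation or TPM. The higher count was 1 with a minimum of 5 FPKM, voom or the replicate block, and 2 with quantile normalisation or TPM. All genes called with olaparib numbered 601 with no filter, 1000 with quantile normalisation and 3157 with voom, beside 1821. For the combination against palbociclib, 3 genes were called, and 7 with a pseudocount of 5, 23 with no filter, 19 with a minimum of 5 FPKM, 17 with quantile normalisation, 12 with TPM and 258 with voom, which called 7 members lower. Quantile normalisation called 2 members, CHTF18 and POLE3, higher in the combination than with olaparib, and 43 lower. Of all 12443 genes tested, it called 2557 higher and 2758 lower in that comparison. The departure from additivity called 1 gene, and 33 with no filter, 6 with a minimum of 5 FPKM, 43 with voom and 0 with the replicate block. The block otherwise kept member counts at an adjusted p below 0.05 within 1 of those reported, and the samples share only a number. At an unadjusted p below 0.05 it gave 8 members lower for additivity, beside 3.

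Leaving out 1 library at a time gave 0 to 20 lower members and 13 to 1956 genes with olaparib, 0 to 2 genes for the combination against palbociclib and 0 to 2 for additivity. Of members called, 43 of 48 with palbociclib, 48 of 50 with the combination against DMSO and 44 of 47 against olaparib held in all 8 such fits. Over the 52 genes, quantile normalisation turned the sign of 6 with olaparib against DMSO, 6 for the combination against palbociclib and 4 for additivity, and TPM of 7, 5 and 5. Among values printed, signs turned under quantile normalisation for POLE3 (0.050), POLD2 (0.15) and ORC6 (0.0032) with palbociclib, POLD2 (0.12) with the combination, PCNA (0.066) against palbociclib, POLE3 (0.10) against olaparib, and ZRANB3 (−0.0022) with palbociclib. Under TPM these turned for POLD2 (0.062) with palbociclib, PCNA (0.024) against palbociclib, and POLE3 (0.033) and ORC4 (0.016) against olaparib. Without single libraries, ORC4 against olaparib ran from −0.12 to 0.014, PCNA against palbociclib from −0.025 to 2.3e-05 and CDT1 with olaparib from −0.020 to 0.11. The cause was not tested. With the 300-base promoter window, 21 members held E2F-type letters and 2 TTTGAA.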

Other observations

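Beyond the 52 genes, a list of 36 other replication and fork factors was read, of which 35 were tested and POLD4, the small subunit of polymerase delta, fell under the expression minimum. With palbociclib against DMSO 26 of the 35 were lower and 1 higher, and 8 did not pass, beside 31.4% of all tested genes lower and 18.7% higher, with a median log2 fold change of −0.43. The lowest were PCLAF, a PCNA-binding protein, at −1.12 ± 0.04 and the topoisomerase TOP2A at −0.94 ± 0.05. PCLAF had 5.79 and 5.83 FPKM in combination and 6.05 and 6.02 FPKM in palbociclib libraries, against 12.9 and 12.4 FPKM in olaparib and 14.4 and 14.1 FPKM in DMSO libraries. The highest was CHTF8 at 0.16 ± 0.03 (adjusted p = 0.0054), with ZRANB3, a fork-remodelling translocase, at 0.08 ± 0.08 without passing. CHTF8 is the third specific subunit of the loader that holds CHTF18 and DSCC1, and had 31.7 and 32.0 FPKM in combination, 32.4 and 31.8 FPKM in palbociclib, 29.8 and 29.2 FPKM in olaparib and 28.3 and 28.7 FPKM in DMSO libraries. So 2 of the 3 specific transcripts of that loader were higher and 1 was lower with palbociclib.

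With olaparib against DMSO 7 of the 35 and 10.5% of all tested genes were lower, and none of the 35 and 4.13% of all were higher. The 7 were led by TIPIN, which acts in fork protection, at −0.30 ± 0.07 and the ubiquitin ligase RAD18 at −0.27 ± 0.06. None of the 7 was called without olaparib replicate 1, olaparib replicate 2, DMSO replicate 1 or DMSO replicate 2, where calls over all genes fell as well. The count of lower genes was 0 with no filter, quantile normalisation or TPM. It was 13 by voom, and 5 to 10 under the other settings tried. With the combination against DMSO 29 were lower and CHTF8 was higher, beside 35.3% of all tested genes lower and 21.5% higher. CLSPN, the checkpoint adaptor claspin, was the lowest there at −1.18 ± 0.08.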
